A study of Mus musculus with 2 samples.

Results

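The 6 genes Mir99a, Mir99b, Mir100, Mir125a, Mir125b-1 and Mir125b-2 are the members other than let-7 of 3 clusters, each of which holds a miR-99 or miR-100 gene, a let-7 gene and a miR-125 gene and is called a tricistron here. The members were chosen by name from the 2202 miRNA genes counted in the adrenal gland, and all 6 were found in both libraries. The libraries come from the adrenal glands of 2 female B6CASTF1/J mice aged 25 days, hybrids of a B6 laboratory mouse and a CAST mouse of wild origin. Whether reads with CAST variants mapped less well was not tested. There was 1 group, with 1 library per sample, no treatment and no genotype contrast. Both samples carry the same donor identifier but separate animal numbers, so the spread between the libraries is that of separate animals only if those numbers hold. The assay was microRNA sequencing of total RNA below 30 nucleotides, and reads were counted per gene and not per mature arm.

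The miR-99 and miR-100 genes belong with the miR-10 genes to an old animal miRNA family, and they are known repressors of the growth regulators mTOR and IGF1R. The miR-125 genes are the vertebrate relatives of lin-4, the worm timing gene, and let-7 is the other classical timing miRNA. In steroid-producing cells miR-125a and miR-125b are known to repress SR-BI, the receptor through which the adrenal cortex takes up cholesterol from high-density lipoprotein. The genes of a tricistron can be made from 1 primary transcript, which is then cut into separate hairpins, and maturation of the let-7 hairpin is under separate control by LIN28.

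The mature sequences show which genes share a seed, the bases 2 to 8 that pair with targets, and which genes the reads could tell apart. RefSeq (GRCm38.p6) held mature sequences for 6 of 6 members and hairpins for 4. The 5p arms follow, 5′ to 3′, with the seed in capitals. They are shown because the seed families and the copies of miR-125b bear on every value below.
miR-99a-5p: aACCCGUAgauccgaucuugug
miR-100-5p: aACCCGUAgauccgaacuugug
miR-99b-5p: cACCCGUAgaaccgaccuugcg
miR-125a-5p: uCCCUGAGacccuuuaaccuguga
miR-125b-5p: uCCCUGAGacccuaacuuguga
miR-10a-5p: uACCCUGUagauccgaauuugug
Mir99a, Mir99b and Mir100 were the only 3 genes of the RefSeq table with the seed ACCCGUA. Counted from 1 at the 5′ end, miR-100-5p differs from miR-99a-5p by the single substitution U16A, and miR-99b-5p differs from miR-99a-5p by A1C, U11A, U16C and U21C. None of these lies in the seed. The seed CCCUGAG was shared by 6 genes, the 3 miR-125 genes with Mir351, Mir6367 and Mir6394. Over the first 13 bases miR-125a-5p and miR-125b-5p are identical, and they are 24 and 22 bases long.

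Mir125b-1 and Mir125b-2 give the same 5p arm, and a search of the annotated miRNA transcripts found it in these 2 genes and no other. A read of that arm maps to both places, and reads of that kind were set aside before counting (28.4% of all reads in library 1 and 27.5% in library 2). The counts of both genes are therefore uncertain and too low by an amount that was not measured. Their 3p arms differ by G3A, G4A, U7C, C11U and G20C and can be told apart. They are shown with the seed in capitals.
miR-125b-1-3p: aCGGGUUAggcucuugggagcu
miR-125b-2-3p: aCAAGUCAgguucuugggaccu
Each mature arm of Mir99a, Mir99b, Mir100 and Mir125a was found in 1 miRNA gene, its own. Among the let-7 genes of the tricistrons, let-7c-5p of Mirlet7c-1 was found also in Mirlet7c-2 and let-7a-5p of Mirlet7a-2 also in Mirlet7a-1, so these counts are uncertain in the same way, while both arms of Mirlet7e were found in 1 gene.
The hairpins of Mir125b-1 (chr9:41581926-41582002, plus strand) and Mir125a (chr17:17830812-17830879, plus strand) show where the arms lie, with the mature arms in capitals and the shared 5p arm of Mir125b-1 first.
Mir125b-1: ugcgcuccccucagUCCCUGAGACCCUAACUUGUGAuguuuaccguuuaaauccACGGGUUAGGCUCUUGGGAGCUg
Mir125a: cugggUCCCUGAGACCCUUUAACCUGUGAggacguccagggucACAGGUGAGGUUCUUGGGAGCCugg

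In mm10 with GENCODE M21, the tricistron of chromosome 16 holds Mir99a (ENSMUSG00000065530.1, bases 77598936 to 77599000), Mirlet7c-1 and Mir125b-2 (ENSMUSG00000065472.1, bases 77646273 to 77646343) over 47408 bases, all in introns of the noncoding host gene Mir99ahg. Mir125b-2 also overlaps an exon of C130023A14Rik on the same strand. The tricistron of chromosome 9 holds Mir100 (ENSMUSG00000093011.1, bases 41531425 to 41531504), Mirlet7a-2 and Mir125b-1 (ENSMUSG00000093354.1, bases 41581926 to 41582002) over 50578 bases, in introns of the noncoding gene 3110039I08Rik. Mir125b-1 also overlaps an exon of Gm28119 on the same strand, and Mir100 an exon of Gm48742 on the other strand. The tricistron of chromosome 17 is compact. Mir99b (ENSMUSG00000065396.1, bases 17830188 to 17830257), Mirlet7e and Mir125a (ENSMUSG00000065479.2, bases 17830812 to 17830879) lie within 692 bases, Mir99b and Mirlet7e in an intron of the sperm gene Spaca6 and Mir125a overlapping an annotated exon of it. All 9 genes are on the plus strand.

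Library 1 held 2244073 reads on the strand of a miRNA gene and library 2 held 3912280. Levels are normalised read counts (CPM), scaled to the sum of these reads in each library, and the SD is over 2 libraries. Intervals given below cover counting error at 95% only and not the spread between samples, and they can be too narrow even for that, because no molecular identifiers separate PCR copies from molecules. A read of this size fraction was taken as 1 mature RNA, so levels of different genes were compared without scaling to gene length. How evenly different mature sequences enter such a library was not tested.

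The 6 genes held 2.45% of the miRNA reads in library 1 (95% Wilson interval 2.43 to 2.47%) and 3.21% in library 2 (3.19 to 3.23%), a mean of 2.83 ± 0.54% (SD, n = 2). Nearly all of these counted reads came from 4 of the genes, Mir99a, Mir99b, Mir125a and Mir100. The 3 genes with the miR-99/100 seed held 1.78% in library 1 and 2.98% in library 2, and the 3 miR-125 genes 0.666% and 0.233%. Reads of the mature arm shared by Mir125b-1 and Mir125b-2 were set aside before counting. The part of these genes is therefore uncertain, and so are the shares of the 6 genes and of the miR-125 genes.

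Mir99a was the most abundant member, with 12148 CPM in library 1 and 18536 CPM in library 2 (15342 ± 4517 CPM, SD, n = 2), which placed it 19th and 16th among all miRNA genes. Mir99b had 3441 CPM in library 1 and 8089 CPM in library 2 (5765 ± 3287 CPM, SD, n = 2). Mir100 had 2259 CPM in library 1 and 3156 CPM in library 2 (2707 ± 634 CPM, SD, n = 2). All 3 genes were higher in library 2, and Mir99a was above both paralogs in both libraries.

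Mir125a, the miR-125 gene of the compact tricistron, had 6241 CPM in library 1 and 2038 CPM in library 2 (4140 ± 2972 CPM, SD, n = 2). Mir125b-1 had 229 CPM in library 1 and 154 CPM in library 2 (192 ± 53.0 CPM, SD, n = 2), from 514 and 603 reads. Mir125b-2 had 191 CPM in library 1 and 136 CPM in library 2 (164 ± 39.0 CPM, SD, n = 2), from 429 and 532 reads. All 3 genes were lower in library 2, the reverse of the miR-99/100 genes.

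By the mean, the order was Mir99a, Mir99b, Mir125a, Mir100, Mir125b-1 and Mir125b-2. Mir99a lay above Mir99b without overlap. In the reads counted, which lack the arm shared by Mir125b-1 and Mir125b-2, Mir100 lay above Mir125b-1 without overlap. Mir99b and Mir125a overlapped, and Mir125a was the higher of them in library 1 and the lower in library 2. Mir125a and Mir100 overlapped and also changed places between the libraries. Mir125b-1 and Mir125b-2 overlapped, although Mir125b-1 was the higher in both libraries. The order of the means was that of reads per base of gene as well, from 18962 scaled reads for Mir99a to 186 for Mir125b-2.

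**Figure D1:**
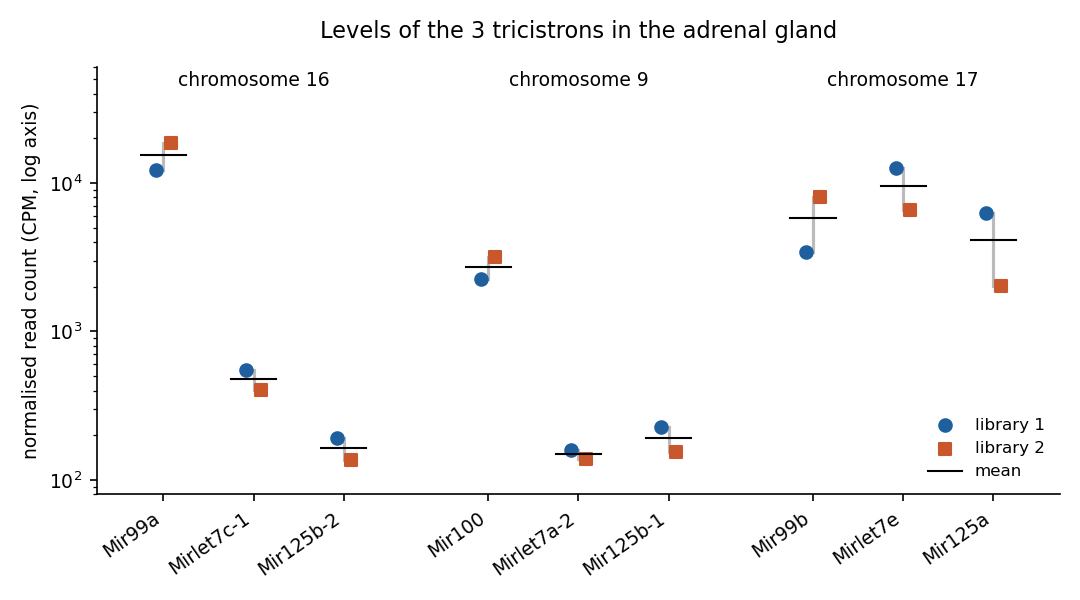
Normalised read counts (CPM, log axis) of the 3 genes of each tricistron in library 1 (circles) and library 2 (squares), with the mean of both as a line. In the reads counted, Mir99a and Mir100 stand far above the other genes of their tricistrons. Those other genes lack the reads of mature arms that have a copy in another miRNA gene. Whether the gap would remain with those reads was not tested. Mir99b (3441 and 8089 CPM), Mirlet7e (12524 and 6613 CPM) and Mir125a (6241 and 2038 CPM) change order between the libraries. Their arms have no such copy.

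The genes of a tricistron were compared within each library, where a ratio of counts does not depend on how libraries are scaled. On chromosome 16, Mir99a had 63.5 times the reads of Mir125b-2 in library 1 and 136 times in library 2. It had 22.2 times the reads of Mirlet7c-1 in library 1 and 45.9 times in library 2. Mirlet7c-1 (548 and 404 CPM) had 2.86 times the reads of Mir125b-2 in library 1 and 2.97 times in library 2. The Mir99a gene thus stood above both neighbours in both libraries, with the limit that the neighbours' 5p arms have a second copy elsewhere and their reads are missing.

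On chromosome 9, Mir100 had 9.85 times the reads of Mir125b-1 in library 1 and 20.5 times in library 2. It had 14.1 times the reads of Mirlet7a-2 in library 1 and 22.7 times in library 2. Mirlet7a-2 (160 and 139 CPM) and Mir125b-1 were close, with a log2 ratio of -0.52 in library 1 (95% interval -0.72 to -0.33) and -0.15 in library 2 (-0.32 to 0.02). The same limit holds for both of these genes.

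On chromosome 17, where no mature arm has a copy in another miRNA gene, the order of the 3 genes turned between the libraries. The largest ratio was 3.64 in library 1, Mirlet7e over Mir99b, and 3.97 in library 2, Mir99b over Mir125a. In library 1 the order was Mirlet7e (12524 CPM), Mir125a (6241 CPM) and Mir99b (3441 CPM). In library 2 it was Mir99b (8089 CPM), Mirlet7e (6613 CPM) and Mir125a (2038 CPM). The log2 ratio of Mir99b over Mir125a was -0.86 in library 1 (95% interval -0.90 to -0.82) and 1.99 in library 2 (1.95 to 2.02). That of Mir99b over Mirlet7e was -1.86 in library 1 and 0.29 in library 2, and that of Mirlet7e over Mir125a was 1.00 and 1.70. Mirlet7e overlaps the miRNA gene Gm25927 on the other strand, so its reads are seen only where strand is used in counting.

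Across paralogs, Mir99a had 5.38 times the reads of Mir100 in library 1 and 5.87 times in library 2, although their mature 5p arms differ at 1 base. Mir99a had 3.53 times the reads of Mir99b in library 1 and 2.29 times in library 2. Mir99b had 1.52 times the reads of Mir100 in library 1 and 2.56 times in library 2. Of all reads of the 3 genes, Mir99a took 68.1% and 62.2%, Mir99b 19.3% and 27.2%, and Mir100 12.7% and 10.6% in libraries 1 and 2.

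Among the miR-125 genes, Mir125a had 27.2 times the reads of Mir125b-1 in library 1 and 13.2 times in library 2. It had 32.6 times the reads of Mir125b-2 in library 1 and 15.0 times in library 2. These ratios are upper values, since only the reads of the copies that map to 1 place were counted. Mir125b-1 and Mir125b-2 were nearly level with each other, with log2 ratios of 0.26 (95% interval 0.08 to 0.45) and 0.18 (0.01 to 0.35).

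**Figure D2:**
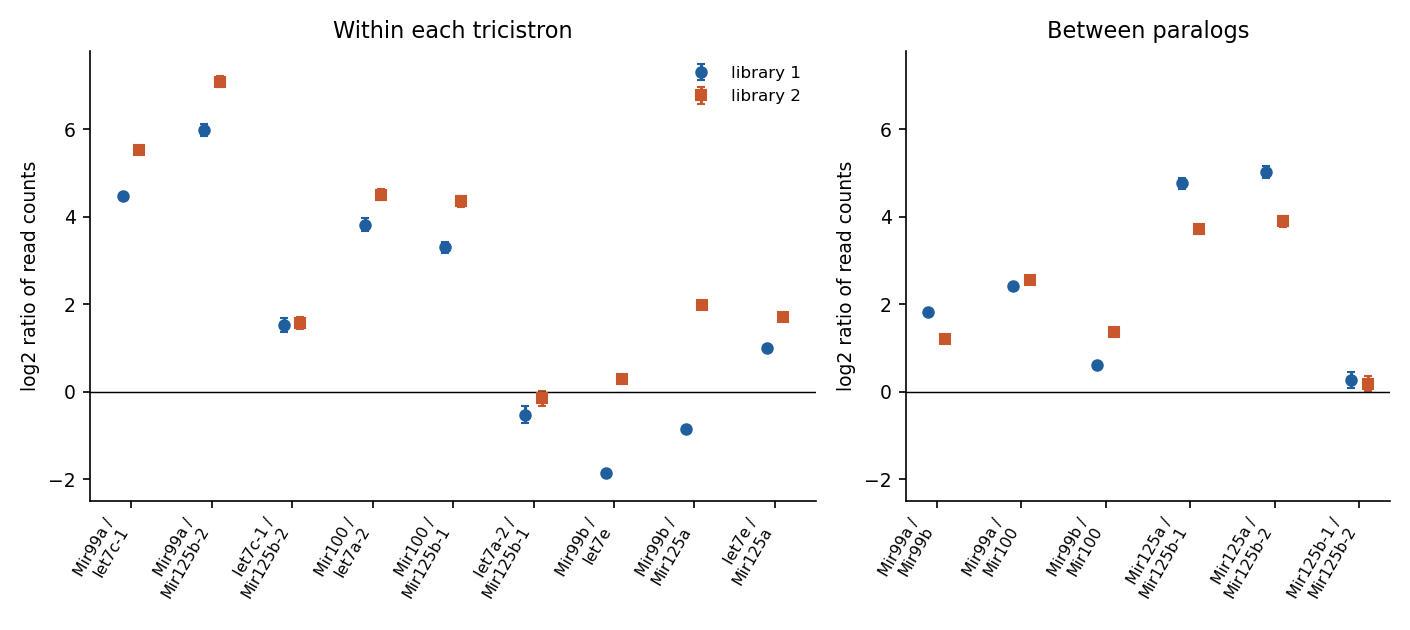
Log2 ratios of read counts between genes of the same tricistron (left) and between paralogs (right), in library 1 (circles) and library 2 (squares), with 95% counting intervals where they exceed the symbol. The ratios of Mir99b over Mir125a (-0.86 and 1.99) and of Mir99b over Mirlet7e (-1.86 and 0.29) change sign between the libraries.

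The libraries were then compared gene by gene, as log2 ratios of library 2 over library 1 with TMM scaling, which sets the bulk of genes level. With 1 library on each side there is no test, and the ratios describe these libraries. Mir99b was 2.50-fold higher in library 2, with 7722 and 31648 reads (log2 ratio 1.32, 95% interval 1.28 to 1.36). Mir99a was 1.62-fold higher in library 2, with 27261 and 72518 reads (log2 ratio 0.70, 0.68 to 0.72). Mir100 was 1.48-fold higher, with 5069 and 12347 reads (log2 ratio 0.57, 0.52 to 0.62), just under the 1.5-fold limit used for counts here.

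In the other direction, Mir125a was 2.89-fold lower in library 2, with 14006 and 7972 reads (log2 ratio -1.53, 95% interval -1.57 to -1.49). Mir125b-1 had a log2 ratio of -0.49 (-0.66 to -0.32) and Mir125b-2 one of -0.41 (-0.59 to -0.22). Neither reached 1.5-fold. Past that fold, 2 of 6 genes were higher in library 2, where 19.5% of the 411 genes with 10 or more reads summed were, and 1 of 6 was higher in library 1, where 22.1% were. In either direction it was 3 of 6 against 41.6% of all genes, a share near the background. With DESeq2 size factors or no filter on low counts Mir100 passed as well, and 3 of 6 were higher in library 2. These scalings move all genes the same way, and the share of all genes past 1.5-fold was not computed with them. The median log2 ratio was 0.08 over the members and -0.07 over the 411 genes.

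Low counts raise the background, so the members were also set beside the 169 genes with at least the 961 reads of Mir125b-2, a limit chosen after the data were seen. Of these, 36.1% were past 1.5-fold, 15.4% higher in library 2 and 20.7% higher in library 1. Only 5 of the 169 genes had a higher log2 ratio than Mir99b and 5 a lower one than Mir125a. For all 6 members the counting interval left out 0, as it did for 60.6% of the 411 genes and 90.5% of the 169 genes, so that alone sets no member apart.

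**Figure D3:**
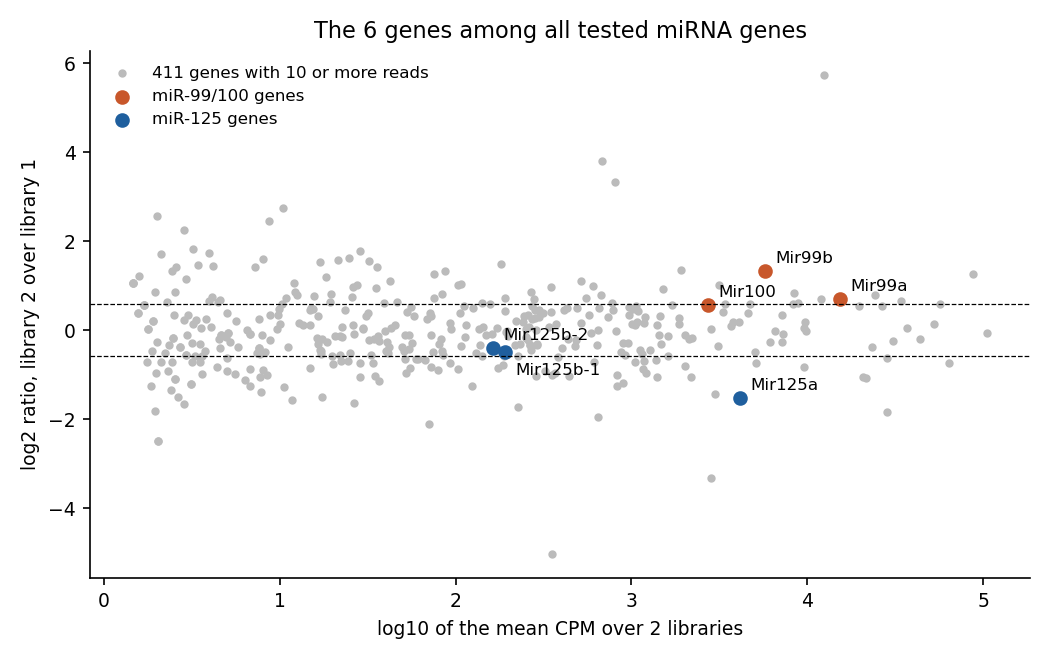
Log2 ratio of library 2 over library 1 against the log10 of the mean CPM for the 411 miRNA genes with 10 or more reads summed, with the 6 members in colour and dashed lines at 1.5-fold. Mir99b (1.32) and Mir125a (-1.53) lie near the edges of the cloud for their level, and Mir125b-1 (-0.49) and Mir125b-2 (-0.41) inside it.

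Set side by side by seed, the directions were split. Mir99a, Mir99b and Mir100 had log2 ratios from 0.57 to 1.32, and summed over the 3 genes the reads were 17848 CPM in library 1 and 29781 CPM in library 2. Mir10a and Mir10b, the miR-10 genes, had log2 ratios of 0.58 (47032 and 66456 CPM) and 0.54 (16675 and 22902 CPM). Neither of the latter reached 1.5-fold. Both did with DESeq2 size factors or no filter, for which the share of all genes was not computed. The 3 miR-125 genes had ratios from -1.53 to -0.41, and their summed reads were 6662 CPM in library 1 and 2328 CPM in library 2. The counted reads of the miR-99/100 genes together were thus 2.68 times those of the miR-125 genes in library 1 and 12.8 times in library 2. Both ratios are upper values, since the reads of the shared miR-125b 5p arm are missing. Mir125a alone gave 93.7% of the counted miR-125 reads in library 1 and 87.5% in library 2, so the change for the whole seed family is uncertain.

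Among the other genes with the miR-125 seed, Mir351, which belongs to the X-linked miR-322 cluster, had 2399 CPM in library 1 and 2009 CPM in library 2 (log2 ratio -0.17, 95% interval -0.22 to -0.12). It was above Mir125b-1 and Mir125b-2 in both libraries, again with the reads of the shared arm missing from the latter. No read of Mir6367 or Mir6394 was counted in either library, where a count of 0 allows up to 3 reads. Mir670, which is not among the genes with this seed but was listed with them, had 6 and 9 reads.

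The let-7 genes of the tricistrons had log2 ratios of -0.36 for Mirlet7c-1 (95% interval -0.46 to -0.25), -0.11 for Mirlet7a-2 (-0.31 to 0.08) and -0.84 for Mirlet7e (-0.86 to -0.81). Only Mirlet7e passed 1.5-fold, and the sign for Mirlet7a-2 turned with no filter on low counts. Of the 9 other let-7 genes, 5 were past 1.5-fold in library 1 and none in library 2, with ratios from -1.03 for Mirlet7a-1 to 0.13 for Mirlet7i. Among all 411 genes 22.1% were past it in library 1 and 19.5% in library 2. Mirlet7a-1 and Mirlet7c-2 lack, as do Mirlet7a-2 and Mirlet7c-1, the reads of their shared 5p arms. Copies of the arms of the remaining let-7 genes, Mirlet7f-1 and Mirlet7f-2 among them, were not searched for. Their counts may be too low as well. The count of 5 was 3 with DESeq2 size factors and 2 with no filter, for which the share of all genes was not computed.

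**Figure D4:**
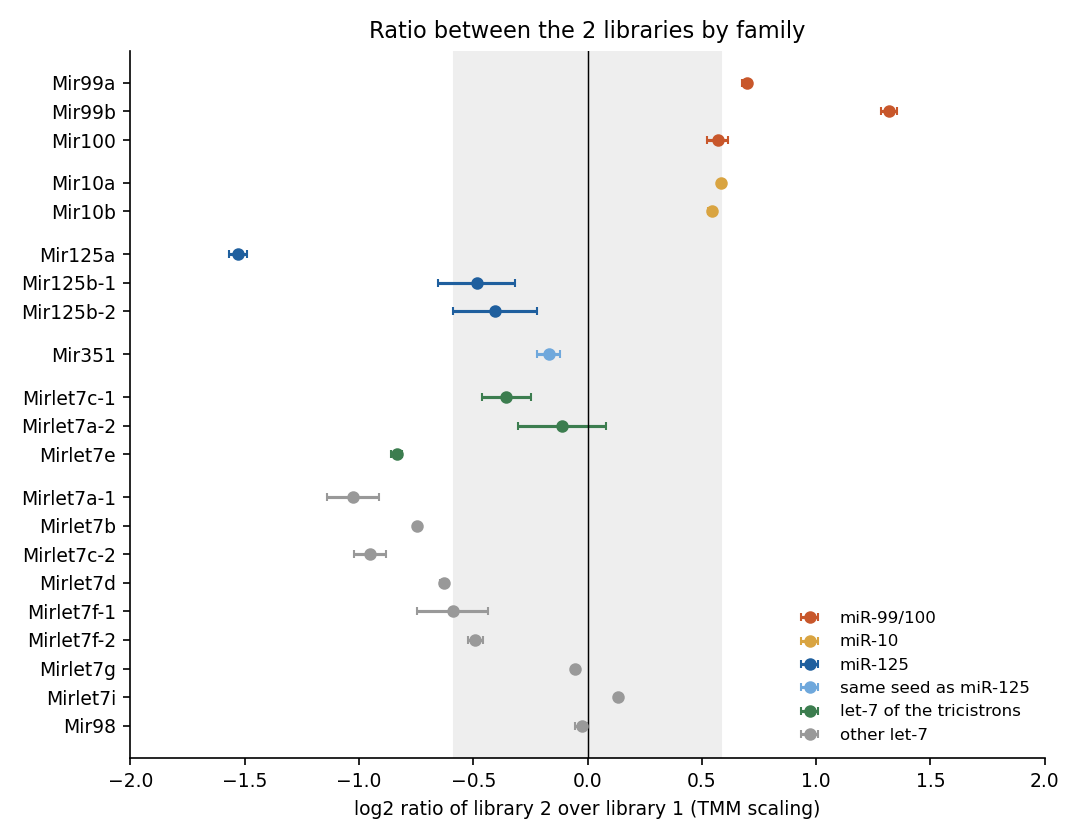
Log2 ratio of library 2 over library 1 with 95% counting intervals for the members, the miR-10 genes, Mir351 and the let-7 genes, with the range under 1.5-fold shaded. The miR-99/100 and miR-10 genes lie to the right of 0 (0.54 to 1.32), and the miR-125 genes lie to the left (-1.53 to -0.41).

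In the reads counted, the miR-99 or miR-100 gene of each tricistron had the highest ratio between libraries and the miR-125 gene the lowest. The difference in log2 ratio between them was 1.10 on chromosome 16 (95% interval 0.92 to 1.29), 1.05 on chromosome 9 (0.88 to 1.23) and 2.85 on chromosome 17 (2.79 to 2.90). Between Mirlet7c-1 and Mir125b-2 it was 0.05 (-0.16 to 0.26), not detectable at this depth, and between Mirlet7a-2 and Mir125b-1 it was 0.37 (0.12 to 0.63). These differences do not depend on the scaling of the libraries. They come from 1 pair of libraries, so the 3 tricistrons are not independent repeats.

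Other neighbouring genes give the background for such differences between genes within 10 kb. Mir125b-2 and Mir125b-1 lie 46522 and 45114 bases beyond their let-7 neighbours, so no pair with them is in this background. Among all 379 pairs of genes on the same strand within 10 kb that had 10 or more reads in each library, the median difference in log2 ratio was 0.51, and 45.4% were past 1.5-fold. Mir99b and Mir125a, 554 bases apart, had the largest difference of the 379. Mir99b and Mirlet7e, 94 bases apart, differed by 2.15, the fifth largest. Both pairs had genes past 1.5-fold in opposite directions, as 4.49% of pairs did. Mir99a and Mirlet7c-1 differed by 1.05, Mirlet7e and Mir125a by 0.69 and Mir100 and Mirlet7a-2 by 0.68. Large clusters give many of the 379 pairs, and a gene can be in several.

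**Figure D5:**
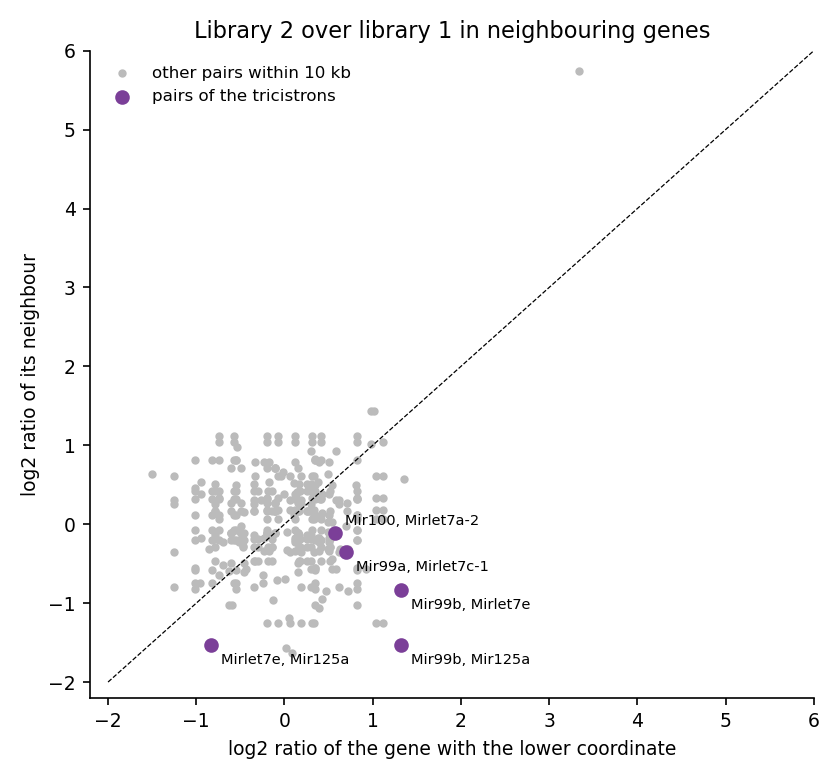
Log2 ratio of library 2 over library 1 of both genes in each of 379 neighbouring pairs within 10 kb, with the line of equal ratios dashed. The pairs of Mir99b with Mir125a and with Mirlet7e lie farthest from the line among the tricistron pairs, with differences of 2.85 and 2.15.

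The genes closest in level to each member over the 2 libraries were sought among 316 detected genes outside these families, by the distance in log2(CPM + 1). They were Mir127 for Mir99a (distance 0.51), Mir7b for Mir99b (0.58), Mir107 for Mir100 (0.38), Mir674 for Mir125a (0.64), Mir24-2 for Mir125b-1 (0.08) and Mir667 for Mir125b-2 (0.23). Mir674 had 4400 CPM in library 1 and 1544 CPM in library 2, the same direction as Mir125a. Genes chosen for like levels in both libraries tend to share a direction, so the shared direction is no separate result. With 2 libraries this likeness is a description of level and of 1 ratio.

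Markers of several cell types were also compared between the libraries, and no list covered the adrenal cortex. The erythroid markers Mir451a, Mir144 and Mir486, all detected, summed to 680 CPM in library 1 and 25715 CPM in library 2. Mir451a and Mir144 were past 1.5-fold higher in library 2 and Mir486 in library 1 (48 and 22 CPM). The endothelial Mir126a had 53762 and 121007 CPM and the liver miRNA Mir122 5185 and 491 CPM. The 5 smooth muscle and fibroblast genes (4 detected) summed to 28927 and 41797 CPM, with Mir143 past 1.5-fold higher in library 2 and Mir214 in library 1. The 5 neuroendocrine markers, listed for the adrenal medulla and all detected, summed to 42223 and 43338 CPM, most of it Mir375 with 37574 and 36561 CPM. Of the other 4, Mir7-2, Mir137 and, just past the limit, Mir7b were past 1.5-fold higher in library 2, and none of the list was in library 1. The 4 leukocyte genes, all detected, summed to 1088 and 913 CPM, with Mir142 past 1.5-fold higher in library 2 and Mir150 and Mir223 in library 1. The 8 epithelial and kidney genes (5 detected) summed to 168 and 126 CPM, with Mir141 past 1.5-fold higher in library 2 and Mir200b in library 1. The 8 striated muscle genes had 13 reads in each library, with Mir1a-1, Mir1a-2, Mir133a-1, Mir133a-2 and Mir208a at 0, and the 3 exocrine pancreas genes had 4 reads in each. Whether arms of the marker genes have copies in other genes was not tested. Reads of such arms would be set aside before counting, so a low count or 0 need not mean absence. The part of these cell types in the ratios of the 6 genes was not tested. In a whole gland, fewer cells of a type and less of a miRNA per cell cannot be told apart.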

How the data were processed

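The authors deposited 1 table of raw read counts per miRNA gene for each of 2 libraries, mapped to mm10 and counted on GENCODE M21, per the labels and the text deposited with each table. Which aligner and counter were used is not stated in the labels. Of the 3 count columns, the first stranded one, whose total on genes was the larger, was used. What each column means was read from its layout and values. Rows that name no gene, 71.7% of all reads in library 1 and 64.9% in library 2, were left out. Library sizes for CPM are the sums over genes of that column. Ratios between libraries used TMM sizes from edgeR 4.0.16 (R 4.3.3) over genes with 10 or more reads summed, with 0.5 read added. Intervals take counts as Poisson. They were tried only on counts simulated as Poisson and scaled by library size, which cannot test the Poisson assumption or the TMM scaling. Alternatives were DESeq2 1.42.0 size factors, library size, no filter, the unstranded column, other library sizes and gene length. Other steps used Python 3.11.15 with pandas 2.3.3, numpy 2.4.6, matplotlib 3.10.9 and scipy 1.17.1. The members and lists were chosen with earlier results of these data known. Named are the members, their let-7 neighbours, genes of the miR-10, let-7 and miR-125 seed lists, and the gene nearest in level to each member. Mature sequences are from RefSeq.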

Additional observations from a re-analysis of the deposited data

How the results depend on the processing

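No paired analysis was possible because the labels give 1 group. For the 6 genes, the log2 ratio between libraries kept its sign in 30 of 30 alternative values. It ranged from 1.23 to 1.48 for Mir99b and from -1.61 to -1.36 for Mir125a. Leaving out the filter moved all ratios by 0.17, the largest shift of the scalings tried. That is less than the smallest ratio in size, -0.41 for Mir125b-2, and the unstranded counts of the 6 genes equal the stranded ones. No sign could turn with these alternatives, so the 30 values are not separate checks. With a fold of 2, 1 of the 6 genes was higher in library 2 and 1 was higher in library 1. The share of all genes past that fold was not computed, so these counts have no background. The share of miRNA reads was 3.46% in the unstranded column, whose sum over genes is lower, and 0.911% of all reads. Per base of gene, the mean log2 ratio was 1.14 for Mirlet7c-1 over Mir125b-2, -0.65 for Mirlet7a-2 over Mir125b-1, 2.79 for Mir99a over Mir100 and 0.10 for Mir125b-1 over Mir125b-2. With 1 replicate left out, the log2 level of Mir99b over Mirlet7e was -1.86 or 0.29 and that of Mir99b over Mir125a -0.86 or 1.99, so neither mean (-0.79 and 0.57) holds in both libraries. Ratios with Mirlet7e had no value in the unstranded column, where it has 0 reads. Depth limits the ratios of Mirlet7a-2, Mir125b-1 and Mir125b-2, with 358 to 603 reads in a library.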
